A study of Mus musculus with 5 samples.

Results

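The adult-only peaks were 20504 regions of open chromatin, 25.3% of the 81124 ATAC peaks listed for adult mouse hindlimb muscle. They were chosen by position alone, as the adult peaks that shared no base with any peak of the 4 other libraries of the study. Nuclei of skeletal muscle dissected from hindlimbs were profiled with the multiome assay, which reads the RNA and the open chromatin of each nucleus together. Muscle of WT C57bl6n mice was taken from embryos (E14.5), fetuses (E18.5), pups (P5) and adults, and muscle of Cacna1s-/- mice (KO, same strain) from fetuses at E18.5. Cacna1s encodes the pore of the calcium channel that couples excitation to contraction. Each group was 1 library, in which nuclei of 56 hindlimbs of E14.5, 14 of E18.5, 8 of P5, 4 of adult and 26 of KO mice were pooled, so that no difference has a check by replicates and no test was made. All intervals below are 95% intervals that cover counting error only and take each count as independent. Adult-only peaks had a median of 159 counts and of 76 nuclei, so a nucleus often gave several counts to a peak. The intervals do not cover this spread between nuclei and can be too narrow.

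Open chromatin marks promoters and distal elements that transcription factors can reach, and distal elements tend to be more specific to a cell type or stage. After birth, myonuclei replace fetal with adult programs: fast myosins, excitable membranes and the enzymes of glycogen and glucose use take over from developmental isoforms. In fast muscle, the genes Myh2, Myh1 and Myh4 encode the myosin heavy chains of type 2A, 2X and 2B fibers and lie next to each other in 1 cluster.

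Peak calls depend on depth and on which nuclei a library holds. After filtering, the libraries held between 3228 (KO) and 5106 (adult) nuclei, with between 13899642 peak counts in KO and 45268051 in adult. Nuclei in which Ttn, the giant sarcomere protein titin, gave at least 1% of gene UMIs, called Ttn nuclei here, were 86.7% of the adult library and between 30.6% and 46.3% of the others. By the methods of the study, nuclei with and without PCM1, its stain for myonuclei, were sorted apart and then mixed at equal volume. These shares are therefore not those of the tissue. The part of depth and of this difference in makeup in the choice of peaks was not tested. The other matrices hold counts only in their own peaks, so the lack of a call in a library does not show that reads were absent there. Between 15 and 42 barcodes were shared by any pair of libraries. By the same rule 25.3% of adult peaks had no partner elsewhere, against 14.6% of E14.5 peaks, 15.1% of E18.5 peaks, 5.43% of P5 peaks and 5.67% of KO peaks.

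Few adult-only peaks sat on promoters, and those that did carry the clearest sequences to inspect. Of 32851 RefSeq promoter windows (GRCm38.p6, 250 bases before to 50 after a start), 340 windows of 301 genes lay wholly inside 296 adult-only peaks. In the following 6 windows, capitals mark the myogenic E-box CAGCTG, the Maf core TGCTGAC, the nuclear receptor core AGGTCA, the NF1 core TTGGCA, the MEF3 motif TCAGGTTTC and the Mef2 motif, each searched on both strands. The windows are shown because they belong to a fast myosin (Myh2), a muscle noncoding RNA (Nctc1), the adult subunit of the acetylcholine receptor (Chrne), a regulator of glycolysis (Pfkfb1), an inward rectifier potassium channel (Kcnj12) and an adipocyte hormone (Adipoq). Myh2 lies at chr11:67170777-67171076 (plus strand), Nctc1 at chr7:142558549-142558848 (minus), Chrne at chr11:70619145-70619444 (minus), Pfkfb1 at chrX:150589666-150589965 (plus), Kcnj12 at chr11:61065554-61065853 (plus) and Adipoq at chr16:23146286-23146585 (plus).
Myh2: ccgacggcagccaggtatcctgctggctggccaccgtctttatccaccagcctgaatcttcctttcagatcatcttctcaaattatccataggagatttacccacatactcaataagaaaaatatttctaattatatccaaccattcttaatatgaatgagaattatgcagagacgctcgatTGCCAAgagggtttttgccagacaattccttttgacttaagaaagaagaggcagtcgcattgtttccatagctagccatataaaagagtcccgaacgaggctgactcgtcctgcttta
Nctc1: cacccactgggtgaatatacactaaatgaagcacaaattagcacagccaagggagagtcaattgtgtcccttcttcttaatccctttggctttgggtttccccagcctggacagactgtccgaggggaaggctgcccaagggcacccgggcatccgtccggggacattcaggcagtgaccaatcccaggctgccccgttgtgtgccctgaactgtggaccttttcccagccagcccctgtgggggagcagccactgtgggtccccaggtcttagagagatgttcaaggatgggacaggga
Chrne: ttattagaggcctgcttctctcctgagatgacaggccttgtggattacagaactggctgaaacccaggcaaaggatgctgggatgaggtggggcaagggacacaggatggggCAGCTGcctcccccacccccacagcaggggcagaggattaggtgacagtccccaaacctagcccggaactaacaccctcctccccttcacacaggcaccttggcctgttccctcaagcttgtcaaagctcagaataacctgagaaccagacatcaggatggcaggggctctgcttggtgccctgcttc
Pfkfb1: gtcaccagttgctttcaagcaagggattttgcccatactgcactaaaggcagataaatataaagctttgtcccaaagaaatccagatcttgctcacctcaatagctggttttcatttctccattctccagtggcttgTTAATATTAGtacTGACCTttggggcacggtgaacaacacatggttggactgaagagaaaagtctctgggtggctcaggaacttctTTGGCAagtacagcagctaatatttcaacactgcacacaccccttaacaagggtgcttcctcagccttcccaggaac
Kcnj12: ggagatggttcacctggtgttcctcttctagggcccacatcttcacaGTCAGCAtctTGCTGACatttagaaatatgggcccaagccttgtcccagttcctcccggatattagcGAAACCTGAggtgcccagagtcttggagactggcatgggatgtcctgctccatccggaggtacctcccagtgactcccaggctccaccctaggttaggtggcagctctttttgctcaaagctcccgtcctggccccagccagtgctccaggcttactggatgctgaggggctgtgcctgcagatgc
Adipoq: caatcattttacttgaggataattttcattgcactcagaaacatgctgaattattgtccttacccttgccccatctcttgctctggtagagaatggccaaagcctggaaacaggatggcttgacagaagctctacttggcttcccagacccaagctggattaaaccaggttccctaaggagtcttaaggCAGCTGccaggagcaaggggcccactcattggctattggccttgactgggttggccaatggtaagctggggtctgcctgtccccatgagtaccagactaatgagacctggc

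Promoters inside adult-only peaks had fewer CpG than those inside shared peaks, and about as many as promoters in no adult peak. Their windows had a median of 4 CpG and 51.7% GC, against 22 CpG and 62.3% GC in the 12276 windows inside shared adult peaks and 4 CpG and 48.0% GC in the 20235 windows in no adult peak. The GC-box CCGCCC was in 18.8% of the adult-only windows, 68.3% of the shared ones, 16.2% of those in no peak and 35.7% of all windows. The nuclear receptor core was in 32.4% of adult-only, 11.2% of shared and 16.3% of all windows, and the NF1 core in 27.9%, 10.7% and 14.1%. The myogenic E-box was in 21.5% of adult-only, 15.9% of shared and 16.3% of all windows, the Maf core in 9.41%, 3.67% and 4.67%, and the Mef2 motif in 5.29%, 1.69% and 3.19%. In windows in no adult peak these shares were 19.1% (nuclear receptor), 15.9% (NF1), 16.5% (E-box), 5.20% (Maf) and 4.06% (Mef2). MEF3 was rare, in 0.588% of adult-only windows and 0.429% of all. The nuclear receptor core is also part of the extended motif TCAAGGTCA. That motif was in 0.588% of adult-only windows, 0.228% of shared ones and 0.539% of those in no adult peak. In the same order, the Tead core CATTCC was in 15.3%, 11.3% and 16.7%, and Runx (TGTGGT) in 20.3%, 11.2% and 20.1%. The glucocorticoid receptor half-site AGAACA was in 25.6%, 11.0% and 23.7%, and AP-1 (TGACTCA) in 7.94%, 3.39% and 6.26%. The D-box TTATGTAA was in 1.76%, 0.424% and 1.24%, and CArG (SRF) in 1.18%, 1.25% and 1.87%. Base composition differs between these sets and its part in the motif shares was not tested, and a match is a run of letters and not a bound site.

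The printed windows differed in which nuclei were open. The Nctc1 promoter peak had 2838 counts in Ttn nuclei and 19 in the other adult nuclei, or 73.5 against 2.86 CPM (counts per 1000000 peak counts), a ratio of 25.7 (16.4 to 42.8). Nctc1 RNA in Ttn nuclei was 0.89 CPM of gene UMIs in embryos (E14.5), 3.16 in fetuses (E18.5), 74.0 in pups (P5) and 1081 in adults. The Chrne peak had 12.5 CPM in Ttn nuclei against 0.60 in other nuclei (20.8-fold), whereas Chrne RNA was 5.47 CPM in adult against 13.2 at P5. A promoter peak called in adult alone thus went with less RNA in adult than at P5 for this gene. At Pfkfb1 the peak had 9.92 against 1.80 CPM (5.50-fold) and the RNA 267 CPM in adult against 24.6 at P5, a ratio of 10.9 (9.67 to 12.2). Kcnj12 had 9.17 against 0.75 CPM (12.2-fold), with 2 Maf cores on opposite strands and a MEF3 match in its window. The Adipoq peak lay the other way, with 1.32 CPM in Ttn nuclei and 11.3 CPM in other nuclei, a ratio of 0.12. Of all 296 promoter peaks, 83 (28.0%) were at least 2-fold higher in Ttn nuclei and 129 (43.6%) at least 2-fold lower, against 30.9% and 25.8% of all adult peaks and 51.8% and 23.5% of all members. RNA was measured for 92 genes of these windows, of which 26 (28.3%) were at least 2-fold higher and 29 (31.5%) at least 2-fold lower in adult than at P5, against 8.31% and 33.8% of all genes.

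Most adult-only peaks were weak and far from genes' starts. Their median was 159 counts over all kept adult nuclei, against 300 for adult peaks shared with at least 1 library and 487 for those shared with all 4. Together they took 10.3% of the adult peak counts. Sorted by counts, 44.8% of the weakest decile of adult peaks was adult-only and 1.10% of the strongest. The strongest adult-only peak had 3069 counts and the weakest 17, so strength varied widely within the set. Distance was taken to the nearest interval that the deposited tables give for the start sites of a gene. The median was 16188 bp for adult-only peaks, 16327 bp for the 3497 peaks that adult shared with P5 alone and 1871 bp for the 31679 shared with all 4 libraries. In all, 12641 adult-only peaks (61.7%) were over 10 kb away, against 36.3% of those shared with all 4.

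**Figure D1:**
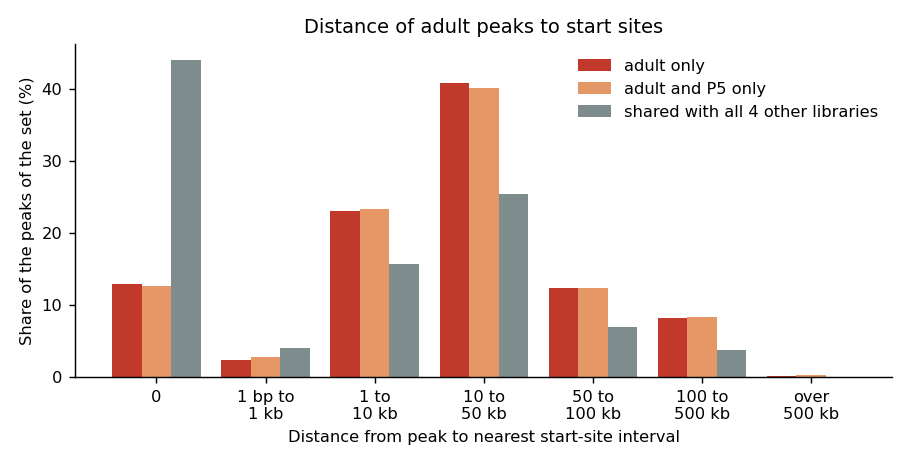
Share of the peaks of each set (%, y axis) by distance to the nearest start-site interval (x axis, 0 means that the peak touches an interval), for adult-only peaks, peaks shared with P5 alone and peaks shared with all 4 other libraries. Of the adult-only peaks 2658 touch an interval, against 13951 of the peaks shared with all 4.

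A touch of an interval is not always a promoter, because 2221 genes have start sites spread over more than 10 kb. Only 298 adult-only peaks (1.45%) touched a narrow interval, against 30.2% of peaks shared with all 4 libraries. By the gene annotation (GENCODE vM21, GRCm38), the centres of 60.3% of adult-only peaks were in introns and 31.7% between genes, against 34.5% and 40.7% for peaks shared with all 4. They were spread over the genome, with between 23.3% (chromosome 7) and 28.1% (chromosome 14) of the adult peaks of each autosome being adult-only. Another adult-only peak lay within 10 kb of 39.5% of them.

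The edge of the rule was sharp in position only. Of the members, 442 had a peak of another library within 100 bp, 2149 within 500 bp, and the median gap was 3750.5 bp. Another 295 adult peaks were left out by an overlap of at most 100 bp. Those just inside (gap up to 100 bp) had a median of 171.5 counts and those just outside 172 counts. The member with most counts, in an intron of Fkbp5, lay 5 bp from a peak of another library.

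Adult-only peaks were more often open in Ttn nuclei than in the rest of the adult library. The 4429 Ttn nuclei held 38615909 peak counts and the 677 others 6652142, and the median nucleus had 6061 peak counts and 3356 UMIs against 7804 and 1228. The 11 myonuclear markers summed to 30470 CPM of RNA in Ttn nuclei and 960 in the others, the 7 mesenchymal markers to 51.3 and 3934 CPM, and the 5 adipocyte markers to 19.8 and 1795 CPM. A peak was measured with at least 20 counts in 1 of both groups, and called higher or lower at a 2-fold ratio of CPM. Of the 20457 measured members, 10595 (51.8%) were higher in Ttn nuclei, against 30.9% of all adult peaks, and 4799 (23.5%) were lower, against 25.8%. Peaks that adult shared with P5 alone were close to this, with 1747 of 3493 higher and 862 (24.7%) lower, so this lean was not particular to adult-only peaks. The median log2 ratio was 1.10 for members, 1.00 for peaks shared with P5 alone and -0.10 for all shared peaks. With the whole interval beyond 2-fold, 6945 members (33.9%) were higher, against 38.2% of peaks shared with P5 alone and 20.9% of all adult peaks, and 4028 (19.7%) were lower, against 20.7%. Adult-only peaks took 10.7% of the peak counts of Ttn nuclei and 7.75% of those of other nuclei, a ratio of 1.39 (1.38 to 1.39), against 1.73 (1.72 to 1.74) for peaks shared with P5 alone. In 851 members (4.16%) no count at all came from other nuclei, against 1409 (1.74%) of all adult peaks. Peaks were called on the whole library, of which Ttn nuclei were the larger share, and the part of this in the counts was not tested.

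The difference from shared peaks was also found among peaks of like strength. In each of the 10 deciles of counts, members were more often higher in Ttn nuclei than shared peaks of the same decile, at between 22.7% and 92.1% of members and between 10.6% and 39.1% of shared peaks. In all 10 deciles they were less often lower, at between 0 and 50.4% of members against between 1.03% and 59.7% of shared peaks. Members in introns were higher in 55.0% of cases and lower in 19.5%, and those between genes higher in 45.3% and lower in 32.3%. By distance the share of higher members lay between 43.0% at 1 bp to 1 kb and 53.8% of the 39 members over 500 kb away.

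**Figure D2:**
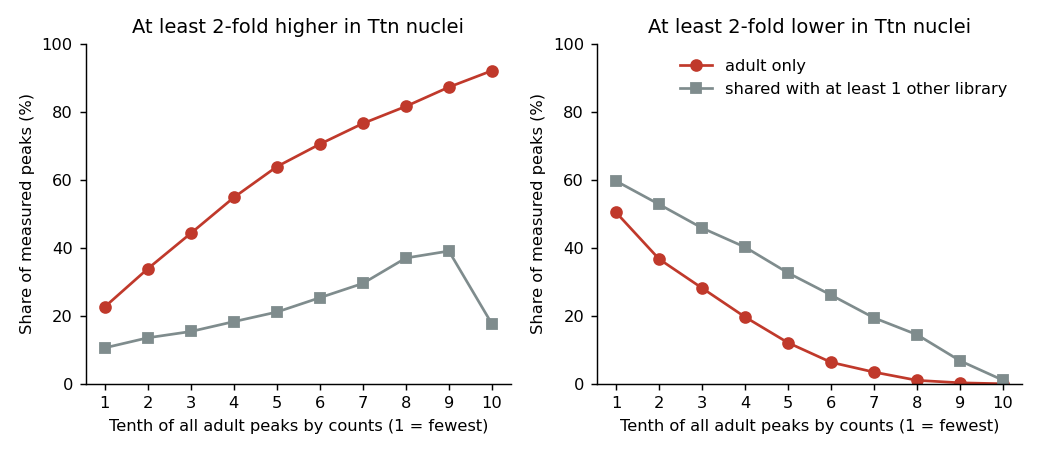
Share of measured adult peaks (%, y axes) at least 2-fold higher (left) or at least 2-fold lower (right) in Ttn nuclei than in other adult nuclei, by decile of counts over all adult peaks (x axes), for adult-only peaks (circles) and peaks shared with at least 1 other library (squares). Adult-only peaks lie above shared peaks in 10 of 10 deciles on the left and below them in 10 of 10 on the right.

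The members with most counts lay near genes of varied roles. The Fkbp5 peak (chr17:28512460-28513376; a co-chaperone of steroid receptors) had 71.6 CPM in Ttn nuclei and 45.5 in others, a ratio of only 1.57 (1.40 to 1.78). Peaks near Atcayos (2963 counts, ratio 15.3), in Bsg (2631 counts, ratio 12.8; basigin, partner of lactate transporters) and near Tpm2 (2624 counts, ratio 15.4; beta-tropomyosin) were far higher in Ttn nuclei. Klf11, a Krüppel-like factor, had a peak 456 bp from its start with 61.3 CPM in Ttn nuclei and 53.2 in others (1.15-fold). Strong members thus included peaks open in Ttn nuclei almost alone and peaks open throughout the library. The rest of the 10 strongest, near Nctc1, Frmd8os, Plin3, Tns1 and Gse1, had ratios between 2.56 (Tns1) and 25.7 (Nctc1).

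The most one-sided members were named by their ratio, among those with at least 100 counts. A peak in an intron of Kcnc1, which encodes a fast voltage-gated potassium channel (chr7:46410476-46411361), had 1000 counts in Ttn nuclei and 1 in other nuclei, or 25.9 against 0.15 CPM. With a single count the ratio of 172 has an interval of 30.8 to 6811. Peaks in Ank1 (161-fold; an ankyrin), Asb5 (148-fold), Mylk4 (145-fold; a myosin kinase) and Camk2a (133-fold; a calcium-dependent kinase), and near 1700049E15Rik, Etl4, C130026L21Rik, Gm13883 and Utp11 (130-fold to 184-fold), stood on the same side. Each of these ratios also rests on 1 or 2 counts in other nuclei, and the lower ends of their intervals lay between 23.3 and 41.0. The intervals do not cover the choice of limit. With Ttn nuclei taken at 2% of UMIs the ratios lay between 16.4 (Kcnc1) and 185 (Etl4), and those of Kcnc1, Gm13883 (18.4), Camk2a (19.9), Mylk4 (21.7) and 1700049E15Rik (27.7) were below their intervals. Members on the other side were far lower in Ttn nuclei, where they still had some counts (21 at Col6a2). They lay near Col6a2, a collagen of the matrix (0.54 against 19.5 CPM, ratio 0.03), and in Lama4, a laminin of basement membranes (0.44 against 13.7 CPM). Another lay in Anks1b (0.41 against 17.3 CPM, ratio 0.02). Ratios were up to 0.04 for Ccer1, Mrpl3, Gm47408, Gm12511, Gm47645, Gm4265 and Gm13467.

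Peaks and the RNA of the nearest gene tended to have the same direction across the adult library. Where the peak was higher in Ttn nuclei, the RNA of the nearest gene was at least 2-fold higher in 31.3% and lower in 19.6% of the 7161 members with a measured gene. Where the peak was lower, it was higher in 6.67% and lower in 63.1% of 2383. The same shares for shared peaks were 36.4% higher beside peaks higher in Ttn nuclei and 66.9% lower beside peaks lower in them, so the pattern was not particular to adult-only peaks. Among genes nearest to at least 1 member, 954 of 5571 (17.1%) had RNA higher in Ttn nuclei, against 13.2% of all genes, and 1904 (34.2%) had it lower, against 35%.

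Among Ttn nuclei, members varied with the fiber type. Nuclei with at least 5 UMIs of Myh1, Myh2 and Myh4, of which at least 60% came from 1 gene, gave 203 Myh2, 457 Myh1 and 2965 Myh4 nuclei. Of 18632 measured members, 2410 (12.9%) were higher in Myh2 than in Myh4 nuclei, against 11.8% of all adult peaks, and 5445 (29.2%) were lower, against 18%. Of peaks shared with P5 alone, 17.1% were higher and 21.8% lower. With 203 Myh2 nuclei the intervals are wide, so peaks with the whole interval past 2-fold were counted as well. By this count, 742 members (3.98%) were higher in Myh2 nuclei, against 3.44% of all peaks, and 1184 (6.35%) were higher in Myh4 nuclei, against 3.28%. In each of the 10 deciles of counts, members were more often lower in Myh2 nuclei than shared peaks were, at between 7.29% and 39.8% against between 2.54% and 20.8%. Peaks were called on the whole library, in which Myh4 nuclei held 24556019 peak counts and Myh2 nuclei 1851086. A minimum of 20 counts is thus reached at a far lower CPM in Myh4 nuclei. The part of both in these shares was not tested. Of the members higher in Ttn nuclei, 10.2% were higher in Myh2 nuclei and 38.7% in Myh4 nuclei. Of those lower in Ttn nuclei, 21.6% were higher in Myh2 nuclei and 8.17% in Myh4 nuclei. These shares were counted for members alone, so whether shared peaks had the same pattern is not shown. A limit of 80% of Myh UMIs left 106 Myh2 nuclei. Then 4117 members (22.2%) were called higher in Myh2 nuclei and 3700 (19.9%) lower, against 19.4% and 14.4% of all peaks. A peak with 0 counts in Myh2 nuclei was set to 3 counts, which in so few nuclei can by itself pass 2-fold. These calls therefore do not show that the balance turned. By whole intervals, 654 members were higher and 693 lower. Single peaks went furthest near Gm49422 (56.7 CPM in Myh2 nuclei and 1.34 in Myh4 nuclei, 42.2-fold) and near Fam181a (0.54 and 37.4 CPM, a ratio of 0.01 that rests on 1 count in Myh2 nuclei and has an interval of up to 0.081). Synpo2, which encodes a Z-disc protein, held a member 16.6-fold higher in Myh2 nuclei, and C330024C12Rik, Slc45a3 and Gm34016 lay near others (17.2-fold to 28.0-fold). Peaks of Gm15879, Camk2a and Cenpf were among those lowest in Myh2 nuclei (0.02 to 0.03, each from 1 count, with intervals of up to 0.16).

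The fast Myh cluster (chr11:67078300-67371586) held 26 adult peaks, of which 7 were adult-only, a share near the 25.3% of all adult peaks. The peak over the Myh2 start had 164 counts in all and 37.3 CPM in Myh2 nuclei, 2.36 in Myh1 nuclei and 1.10 in Myh4 nuclei, a ratio of Myh2 to Myh4 nuclei of 33.9 (21.4 to 55.0). A member upstream of Myh2 (chr11:67163361-67164240) had 16.7 CPM in Myh2, 5.36 in Myh1 and 5.78 in Myh4 nuclei. Both members near Myh2 were thus highest in Myh2 nuclei. The 2 strongest members of the cluster lay by Myh4. One before its start (chr11:67235592-67236458) had 3.78 CPM in Myh2, 7.72 in Myh1 and 43.3 in Myh4 nuclei, and one after its end (chr11:67263196-67264105) had 1.08, 5.15 and 35.9 CPM. The second was 46.9-fold higher in Ttn than in other nuclei (28.2 against 0.60 CPM). Its nearest start-site interval was that of Myh8, 13018 bp away. Of the other 3 members, one upstream of Myh2 (chr11:67141879-67142690) had a ratio of Myh2 to Myh4 nuclei of 0.42, one in Myhas (chr11:67229701-67230611) of 1.77, and the weakest, in Myh13, had 70 counts in all. The shared peak at the Myh1 start had 54.6, 46.1 and 2.44 CPM in Myh2, Myh1 and Myh4 nuclei, and no adult-only peak was at that start. Myh2 RNA in Ttn nuclei was 0.20 CPM in embryos (E14.5), 10.0 in fetuses (E18.5), 109.4 in pups (P5) and 333.5 in adults. Reads of these similar genes may be shared among them, and strand of counting is not given.

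**Figure D3:**
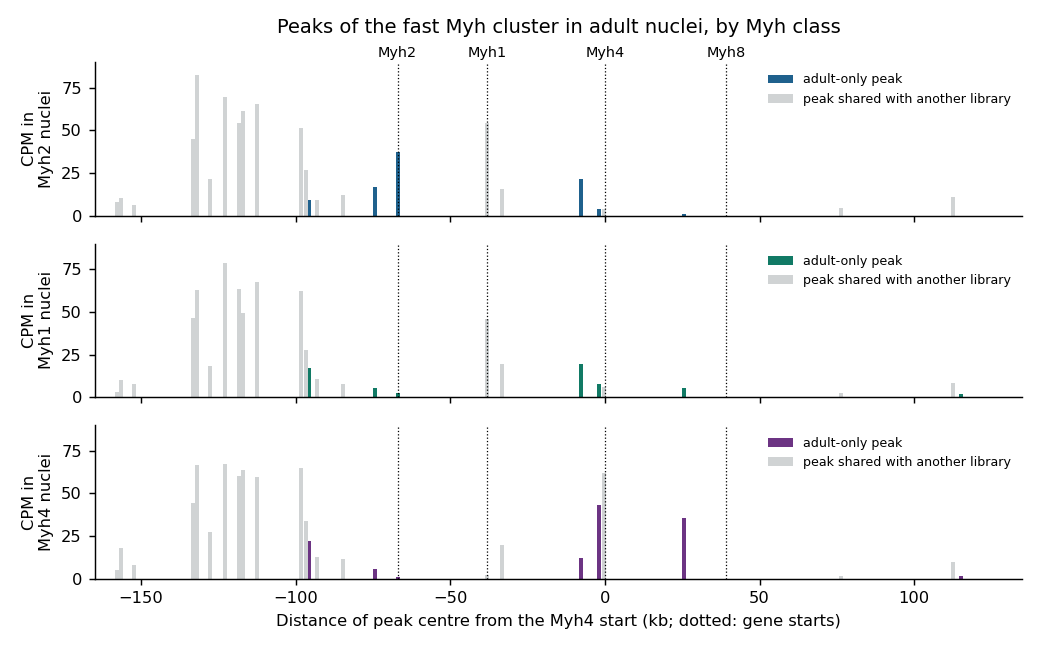
CPM (y axes) in Myh2 (top), Myh1 (middle) and Myh4 nuclei (bottom) of each adult peak of the fast Myh cluster, by distance of the peak centre from the Myh4 start (x axis, kb). Dotted lines are gene starts. Colored bars are adult-only peaks and grey bars are peaks shared with another library. The peak over the Myh2 start reaches 37.3 CPM in Myh2 nuclei and 1.10 in Myh4 nuclei.

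The 20504 peaks had 10040 genes as their nearest, 31.1% of the 32285 listed. RNA was compared between Ttn nuclei of adult and of P5, as CPM of gene UMIs, with genes measured at 20 UMIs in 1 of both. In these sums, fewer nuclei of a type and less RNA per nucleus cannot be told apart. Of 6041 measured genes with a member, 670 (11.1%) were at least 2-fold higher in adult, against 8.31% of all genes, and 1906 (31.6%) were lower, against 33.8%. The split of calls depended on scaling, since with median-of-ratios size factors 1457 genes with a member (24.1%) were higher and 1408 (23.3%) lower, against 20.1% and 24.9% of all genes. The median log2 ratio of all genes was -0.40 with CPM and 0.21 with size factors.

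The share of genes higher in adult grew with the number of members. It was 5.80% for genes with an adult peak but no member, 8.79% with 1, 10.2% with 2, 14.9% with 3 to 5, 19.0% with 6 to 9 and 19.0% with 10 or more members. Against E18.5 (10.2% of all genes higher in adult) the same classes gave 6.41%, 10.4%, 14.3%, 21.4%, 31.8% and 48.8%, and against E14.5 (15.7% of all genes) 11.0%, 17.0%, 21.0%, 28.5%, 37.7% and 48.1%. These comparisons share the adult library. Genes with more members also had more peaks of any kind, with a median of 1 adult peak without members and 29 at 10 or more. Among genes with 5 to 15 adult peaks, 15.4% of those with 3 to 5 members and 6.77% of those with none were higher in adult than at P5.

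**Figure D4:**
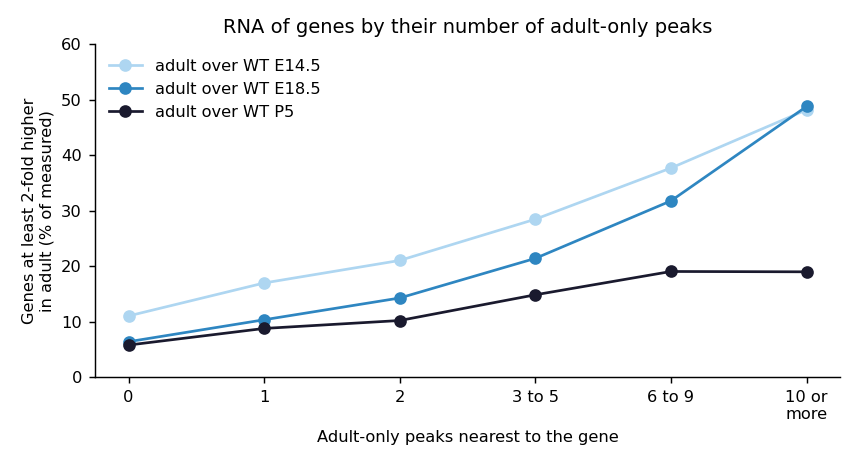
Share of measured genes at least 2-fold higher in adult (%, y axis) than at E14.5, E18.5 or P5, by the number of adult-only peaks nearest to the gene (x axis). The share against E18.5 is 6.41% for genes with an adult peak but no adult-only peak and 48.8% for genes with 10 or more.

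The genes nearest to most members included receptors, kinases and enzymes of signalling. Fgfr2, a fibroblast growth factor receptor, had 58, of which 31 were higher and 16 lower in Ttn nuclei. Its annotated range is wide (chr7:130162451-133123350), and all 58 touched its start-site interval. A peak inside that interval is at distance 0 from Fgfr2 even where it lies far from any single start of the gene. The part of this width in its rank was not tested. Fgfr2 RNA was 112 CPM in adult and 225 at P5, a ratio of 0.50. Rora, a nuclear receptor of the clock and of metabolism, had 43 (28 higher, 5 lower), and its RNA was 383, 690, 3654 and 3944 CPM from E14.5 to adult. Pde4d, which breaks down cyclic AMP, had 30, of which 28 were higher and 0 lower in Ttn nuclei, and its RNA was 7179 CPM in adult against 2099 at P5. Ank3, an ankyrin that holds membrane channels in place, had 19 (16 higher, 2 lower), with RNA at 3354 CPM in adult and 2142 at P5, and Prkca, a protein kinase C, had 21 (18 higher, 2 lower). Zbtb20 (23), Lpp (19), Cdh4 (18), Bcor (17) and Gm29927 (17) followed. Lpp RNA was lower in adult, at 689 CPM against 1727 at P5, so genes with many members lay on both sides.

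Genes nearest to at least 3 members and highest in adult over P5 included enzymes, a transcription factor and noncoding RNAs. Smox, spermine oxidase, had 274 CPM in adult against 12.3 at P5, 22.2-fold (18.9 to 26.3), with 5 members of which 4 were higher in Ttn nuclei, the strongest at 25.8 against 1.35 CPM. Tfcp2l1, a transcription factor, had 21.2 against 0.90 CPM (23.6-fold) and 14 members, 13 of them higher in Ttn nuclei. Actr3b, an actin-related protein, had 94.7 against 0.98 CPM (96.5-fold). At these 3 genes most members were higher in Ttn nuclei, and their RNA was higher in adult. Arrdc2 (35.8-fold), Chac1 (29.7-fold, 5.08 to 1197, from 1 UMI at P5), Gm13490 (24.7-fold), Prima1 (21.8-fold; an anchor of acetylcholinesterase) and Tspan8 (21.7-fold) followed, and the strongest member of Prima1 had 42.9 CPM in Ttn nuclei against 1.20 in others. Of the 4 members of Tspan8, 2 were higher in Ttn nuclei. Gm49192 had the highest ratio, with 20.2 CPM in adult against 0.16 at P5 (124-fold, 34.0 to 1026, from 2 UMIs at P5), and its 4 members were all lower in Ttn nuclei. Genes lowest in adult over P5 had members too. Grip1 had 0.86 against 153 CPM, with 3 of its 4 members higher in Ttn nuclei, and Ccnd1, cyclin D1, 0.05 against 6.13 CPM. Adam23, Pcdh18 and Gm48155 were the others.

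**Figure D5:**
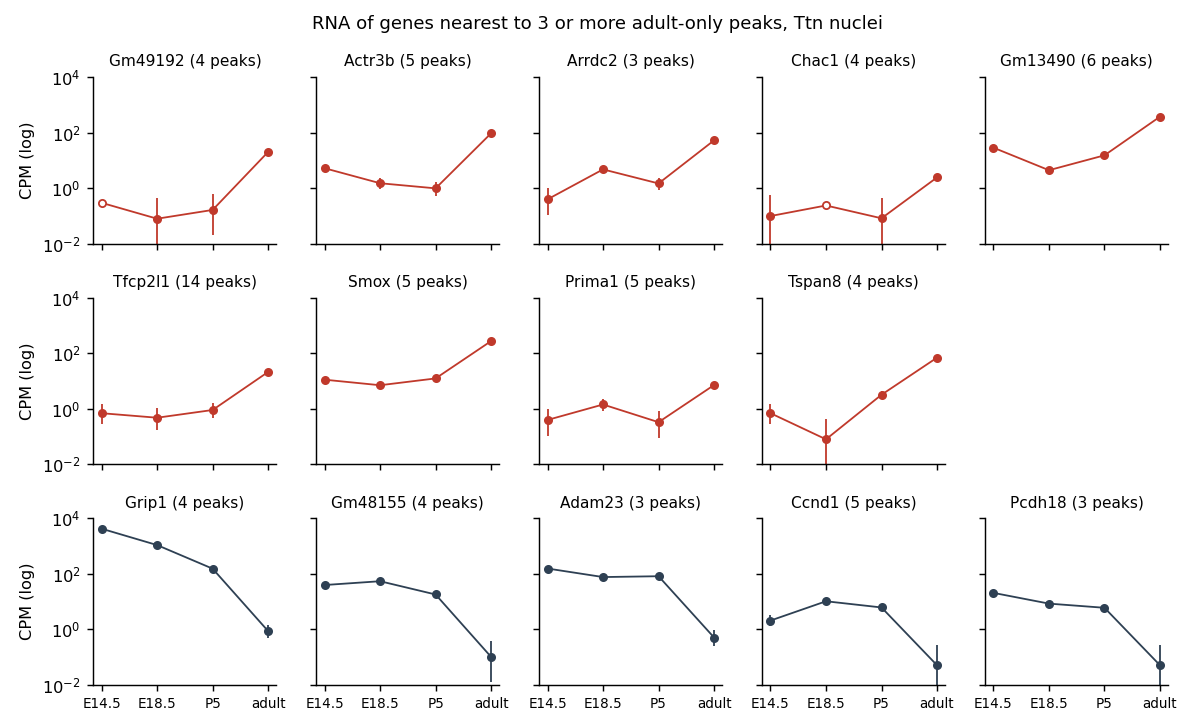
RNA (CPM of gene UMIs, log y axis) in Ttn nuclei of the 4 WT libraries by stage (x axes) for 9 of the genes highest (red, each with at least 1 UMI at P5) and the 5 lowest (dark) in adult over P5 among genes nearest to 3 or more adult-only peaks. Bars are exact Poisson 95% intervals, and open circles are genes with no UMI, drawn at 3 counts. Smox was at 274 CPM in adult and 12.3 at P5.

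Pathway lists were read by their counts, against 51.8% higher and 23.5% lower over all members, and no list was tested. Shares of genes with a member stand against 31.1% of all genes. Adult-only peaks were 30.6% of the 108 adult peaks nearest to fast sarcomere genes and 26.2% of the 122 of excitation-contraction coupling. They were 34.8% of the 115 of membrane excitability and 28.0% of the 118 of glycolysis and phosphagen, against 25.3% of all adult peaks. Fast sarcomere genes had 33 members at 13 of 19 genes, of which 32 were higher and 0 lower in Ttn nuclei (median log2 ratio 4.21, against 1.10 for all members). Mylk2, a myosin light chain kinase, carried the strongest, with 61.7 against 1.35 CPM (chr2:152903938-152904754), and Pvalb, which encodes parvalbumin, a buffer of calcium, had one with 1205 counts in Ttn nuclei and 0 in others. Excitation-contraction coupling genes had 32 members at 12 of 19 genes (26 higher, 2 lower). Among them, Jph1, a junctophilin of the triad, had a peak of 15.4 against 0.30 CPM and Trdn, triadin, one of 15.2 against 0.45 CPM. Membrane excitability genes had 40 members at 12 of 16 genes (36 higher, 1 lower), including Kcnj12 (33.6 against 1.65 CPM for its strongest) and Kcnc1. Glycolysis and phosphagen genes had 33 at 14 of 23 genes (29 higher, 2 lower), with Pfkm, muscle phosphofructokinase, at 50.3 against 0.60 CPM.

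RNA of list genes with a member was read against the 8.31% higher and 33.8% lower in adult over all genes. At least 2-fold higher in adult than at P5 were 7 of 14 such genes of glycolysis and phosphagen (1 lower), 5 of 13 of the fast sarcomere (2 lower), 3 of 12 of membrane excitability (2 lower) and 1 of 12 of excitation-contraction coupling (3 lower). Over all measured genes of these lists, with or without a member, 9 of 23, 7 of 19, 6 of 16 and 1 of 19 were higher, and 3 of each lower. At the neuromuscular junction 0 of 6 genes with a member were higher and 4 lower, and over the whole list 0 of 14 and 11. These counts thus describe the lists and are not particular to genes with a member.

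Regulators of metabolism followed the same side with more exceptions. Adult-only peaks were 37.9% of adult peaks nearest to nuclear receptors and coactivators, 32.7% for insulin and glucose uptake and 36.1% for atrophy and denervation. They were 33.6% for fiber-type factors, 29.2% for fatty acid oxidation, 14.3% for the neuromuscular junction and 15.5% for the clock, against 25.3% of all. Nuclear receptors and coactivators had 85 members at 13 of 17 genes (58 higher, 11 lower), insulin and glucose uptake 65 at 16 of 18 (47 higher, 6 lower), atrophy and denervation 52 at 13 of 16 (38 of 51 measured higher, 2 lower) and fiber-type factors 91 at 21 of 22 (58 higher, 8 lower). Trim63, the ubiquitin ligase MuRF1, had one of 25.1 against 2.56 CPM and RNA of 357 CPM in adult against 94.3 at P5. Fatty acid oxidation was more even, with 16 of 33 higher and 8 lower (median log2 ratio 0.46). There Ppara, a fatty acid sensor, had a peak of 58.9 CPM in Myh2 nuclei and 8.14 in Myh4 nuclei (7.23-fold), and Mb, myoglobin, one of 36.2 and 8.96 CPM (4.04-fold). At the neuromuscular junction 7 of 10 measured members were higher and 2 lower, and of the 15 clock members 10 were higher and 2 lower, whereas a peak in Nr1d1, a clock repressor, had 17.6 CPM in Ttn nuclei and 34.9 in others (0.50-fold).

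Factors named by the study as adult in these libraries had 26 members at 4 of 5 genes, Thrb, Esr1, Tef and Nr4a1 (14 higher, 2 lower), and the list is not independent of these samples. The fifth, Maf, was nearest to no member. Thrb, a thyroid hormone receptor, had 15 members of 25 adult peaks and RNA of 1749 CPM in adult against 127 at P5. The fetal factors that the study names, Myog, Tead4 and Klf5, had 9 members (7 higher, 1 lower), although their RNA was 1.27 (Myog), 9.82 (Tead4) and 4.15 CPM (Klf5) in adult against 10.5, 56.6 and 32.1 CPM at P5. Slow fiber genes had 10 members (4 higher, 2 lower) and developmental genes 4 (4 higher, 0 lower). All 8 slow and 4 developmental genes with a member had RNA at least 2-fold lower in adult than at P5. So had all 13 slow and all 12 measured developmental genes of the whole lists. Nearest genes were taken by distance alone, and the only member of Myh8 is the peak after the end of Myh4. Of the adult peaks nearest to the adult factors 38.2% were adult-only, and of those nearest to the fetal factors 36.0%. For slow fiber genes this was 17.9% and for developmental genes 11.8%, against 25.3% of all adult peaks. Pfkfb3, a glycolytic regulator with RNA of 1086 CPM in adult against 15.3 at P5, had only 1 member among its 12 adult peaks.

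Members at markers of several other cell types lay on the opposite side. Mesenchymal markers had 9 members (1 higher, 7 lower in Ttn nuclei) and adipocyte markers 8 (0 higher, 6 lower), among them Pparg, the regulator of fat cell formation (0.91 CPM in Ttn nuclei against 16.5 in others), and the promoter of Cidec, a lipid droplet protein (2.67 against 19.5 CPM). Endothelial markers had 2 members and neuronal markers 3, all lower. Macrophage markers differed, with 7 members of which 4 were higher and 0 lower, such as a peak at Cd163 with 5.26 against 0.90 CPM. Muscle progenitor markers had 6 members (4 higher, 0 lower), Schwann cell markers 3 (3 higher, 0 lower), smooth muscle markers 3 (0 higher, 1 lower) and tenocyte markers 1 within 2-fold, and lymphocyte, erythroid and keratinocyte markers had 0. Adult-only peaks thus included regions open mainly outside Ttn nuclei.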

How the data were processed

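The deposited values are raw counts, UMIs for genes and ATAC counts for peaks, which the authors made. The processing notes of the submitters name Cell Ranger ARC 2.0.0 and mm10. Peaks were listed separately for each library, without normalization. Nuclei were kept with over 400 and under 25000 UMIs, less than 10% of UMIs from mitochondrial genes and fewer than 70000 counts in peaks, after the limits in the methods of the study, and doublets were not removed. The supplement of the study also gives a lower limit of 400 ATAC counts, which was used here only as an alternative. It leaves 4768 adult nuclei, against the 5106 kept. Adult peaks were intersected with the peaks of the 4 other libraries (1 bp), and their distance was taken to the start-site intervals of the deposited tables. Counts were summed over nuclei and scaled to counts per 1000000 (CPM). Levels have exact Poisson and ratios exact conditional (Clopper-Pearson) 95% intervals, and a group at 0 was set to 3 counts. Called means a 2-fold ratio, a rule of size, with at least 20 counts in 1 of both groups. Nuclei near the Ttn limit (from 0.5% to under 2%) numbered 72 in adult, 387 at P5, 504 at E18.5, 1172 at E14.5 and 540 in KO. The median Ttn share of Ttn nuclei was 7.71% in adult, 3.19% at P5, 2.72% at E18.5, 1.97% at E14.5 and 2.29% in KO. The part of this in the RNA ratios was not tested. Named peaks and genes were those with most counts, the most extreme ratios, or most peaks, and 1 gene that the rule names is not reported here. Members and lists were chosen with earlier results of these data known. Motifs were read in RefSeq promoter windows, and peak sequences outside them are not analysed here. Python 3.11.15, numpy 2.4.6, scipy 1.17.1 and pandas 2.3.3 were used, and the steps were tested on simulated data. The simulated counts were independent, so spread between nuclei was not covered. Recovery of the simulated folds was not required for the comparison of Myh2 with Myh4 nuclei. Alternatives changed the overlap, the libraries, the peak minimum, the Ttn and Myh limits, the nuclei and the scaling.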

Additional observations from a re-analysis of the deposited data

How the results depend on the processing

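The number of adult-only peaks lay between 15673 (adult peaks with at least 100 counts) and 24112 (E18.5 not compared) under the alternatives. The share over 10 kb from a start was 62.6% without peaks within 500 bp of another library's, 72.0% with the starts of the gene annotation and 59.0% at 100 counts or more, against 61.7%. The ratio of summed counts was 1.37 with a Ttn share of at least 2%, 1.40 with all barcodes and 1.46 when scaled by shared peaks, against 1.39. Genes higher in adult than P5 numbered 1457 with median-of-ratios size factors, against 670, and genes lower numbered 3319 with no minimum count, against 1906. Members higher in Myh2 than in Myh4 nuclei numbered 4117 at 80% of Myh UMIs from 1 gene, which leaves 106 Myh2 nuclei, and 1238 at 50 counts or more, against 2410. At 80% more members were higher than lower (3700) in Myh2 nuclei, whereas the whole intervals gave 654 higher and 693 lower. The cause of these shifts was not tested. Of the 51 values for whole sets, 41 were counts within 1.5 times the reported count or shares and ratios within the 95% interval of the reported value, and 296 of 352 ratios of single peaks and genes lay within that interval. No called value changed direction. Intervals of peaks with 1 or 2 counts in other nuclei are wide, so a ratio could move several-fold inside them, as that of Ank1 did (33.8 at a Ttn share of 2%, against 161). That of Kcnc1 was 16.4, against 172. No paired analysis was possible because each group is 1 library.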
